A study of Mus musculus with 4 samples.

Results

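The set was the 10 pyrimidine enzymes Dpyd, Dpys, Upb1, Upp1, Tk1, Cad, Dhodh, Umps, Cmpk1 and Dctd, out of 24428 gene symbols counted. It was chosen on the readout: where the mean log2 CPM was 2 or more (CPM, counts scaled for library depth by edgeR's cpm function), Dpys had the largest decrease with tamoxifen, and the other 9 were added as enzymes of the same pathway. The comparison that chose the set is the same one described here, so the values of Dpys are given with no test, and counts over the set support nothing beyond themselves. The data were poly(A) RNA-seq counts from embryonic stem cells of 129SvEv mice at passages 15 to 20, grown in serum and LIF, with floxed Smarca4 alleles and the tamoxifen-inducible recombinase CreER. Smarca4 encodes BRG1, an ATPase of the mSWI/SNF chromatin remodeling complexes. The drug group was given 4-hydroxytamoxifen at 0.8 uM for 48 h (n = 2) and the control group ethanol (n = 2), with collection at 72 h, and both groups carried the floxed alleles and CreER. The genotype label, acute deletion of Smarca4, is the same on all 4 libraries, so groups follow titles and treatment. The promoter that drives CreER and the number of clones are not given in the labels, and tamoxifen-treated cells without floxed alleles were not analysed here, so deletion, drug and active recombinase cannot be told apart. Whether the 2 libraries of a group stem from separate cultures is not said in the labels, and the p-values cover only how far these libraries spread, which may be technical.

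Pyrimidines are the ring bases uracil, thymine and cytosine of RNA and DNA. Cells build them anew as UMP through the trifunctional CAD, the mitochondrial DHODH and the bifunctional UMPS, recover them from nucleosides by salvage, and convert UMP into the other nucleotides. Breakdown runs through dihydropyrimidine dehydrogenase (Dpyd), dihydropyrimidinase (Dpys) and beta-ureidopropionase (Upb1) and ends in beta-amino acids. It is known mainly from liver and kidney, and rapidly dividing cells draw on synthesis and salvage.

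RefSeq promoter windows of GRCm38.p6, from 250 bases before to 50 bases after a start, were at hand for 8 of the 10 genes, and Dpys and Dhodh had no entry. The windows of Cad and Umps are printed because these genes act in the same short route to UMP. Their log2 fold changes had opposite signs, though that of Umps was not called. The window of Cmpk1 is printed because it was called lower only without correction for the base composition of transcripts. Capitals mark the GC box GGGCGG, the TATA-type run TATAAA and the CRE core TGACGT, each on either strand; overlapping matches merge.
Cad, chr5:31054530-31054829, plus strand: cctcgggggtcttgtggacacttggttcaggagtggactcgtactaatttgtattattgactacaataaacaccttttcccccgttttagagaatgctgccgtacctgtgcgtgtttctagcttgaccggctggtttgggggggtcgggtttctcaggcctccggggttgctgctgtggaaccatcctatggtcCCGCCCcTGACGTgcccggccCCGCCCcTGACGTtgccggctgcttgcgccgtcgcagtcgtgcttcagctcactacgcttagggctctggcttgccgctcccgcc
Umps, chr16:33966989-33967288, minus strand: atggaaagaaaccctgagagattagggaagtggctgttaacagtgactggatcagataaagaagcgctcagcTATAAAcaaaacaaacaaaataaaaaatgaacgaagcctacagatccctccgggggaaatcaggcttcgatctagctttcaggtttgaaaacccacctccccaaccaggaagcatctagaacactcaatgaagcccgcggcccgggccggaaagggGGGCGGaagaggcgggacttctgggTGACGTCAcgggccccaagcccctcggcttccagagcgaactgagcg
Cmpk1, chr4:114987179-114987478, minus strand: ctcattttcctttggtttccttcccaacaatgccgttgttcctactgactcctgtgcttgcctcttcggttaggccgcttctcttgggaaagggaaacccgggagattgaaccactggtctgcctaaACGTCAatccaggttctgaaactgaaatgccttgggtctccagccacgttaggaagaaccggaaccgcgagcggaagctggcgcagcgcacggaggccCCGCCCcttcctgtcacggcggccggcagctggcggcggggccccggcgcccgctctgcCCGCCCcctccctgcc

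The Cad window held 2 matches to TGACGT and 2 to GGGCGG, the Umps window 2 overlapping matches to TGACGT on opposite strands, 1 to GGGCGG and 1 to TATAAA, and the Cmpk1 window 1 to TGACGT and 2 to GGGCGG. Of 32851 windows of this length, 7.51% held TGACGT, 35.7% GGGCGG and 13.6% TATAAA. The first pair of these motifs was added after the windows had been seen. None of the 12 windows of the 8 genes held the E-box CACGTG (7.15% of all windows), the octamer ATGCAAAT (1.74%) or the E2F-type runs TTTCCCGC or TTTGGCGC (1.56% for either), which says only that these letters are not in these windows. GC content was 59.7% in the Cad window, 53.0% in that of Umps and 62.7% in that of Cmpk1, beside a median of 52.7% over all windows.

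Libraries held 13458463 to 27086142 reads in genes. Smarca4, the targeted gene, was lower in both tamoxifen libraries (68.5 and 68.7 CPM) than in both ethanol libraries (328 and 409 CPM), with 18.6% of the ethanol level left in the fit. Over all genes, log2 fold changes followed the GC content of the transcript (Spearman correlation 0.645; genes are no independent replicates). Split into 10 bins of equal size by GC content, genes had a median of -0.75 in the lowest bin and 0.69 in the highest. Values with that trend removed from each library (GC correction) are therefore given as well. At an edgeR adjusted p under 0.05 over all genes tested, 21.5% of genes were called higher and 22.9% lower. With GC correction 10.1% were higher and 9.95% lower. Of 8 stem cell markers, all tested, Dppa5a was higher, Tdgf1 lower and 6 were not called. With GC correction 3 were higher (Dppa5a, Nanog and Zfp42) and 2 lower (Esrrb and Utf1), and Tdgf1 was at -0.17 and not called. Of 7 tested fibroblast markers 5 were higher with tamoxifen and none lower, in number the same with GC correction, and the sum over the 8 listed was 142 and 197 CPM with ethanol and 361 and 362 CPM with tamoxifen; Lum was near 0. The 6 primitive endoderm markers summed to 520 and 811 CPM with ethanol and 605 and 779 CPM with tamoxifen, most of it Dab2. Of these, 2 were higher and none lower, Foxa2 (1.39; 0.95 and called with GC correction) and Gata4 (0.54; 0.07 and not called). The part of other cell types in the results below was not tested.

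Of the 10 enzymes, 8 passed the filter on low counts. Leaving aside Dpys, on which the set was chosen, 2 of the other 7 were higher (Cad, Dctd) and 1 lower (Cmpk1). The threshold was an edgeR adjusted p under 0.05 over all 14479 genes tested, which is the sense of "called" throughout. In the same test 21.5% of all genes were higher and 22.9% lower, shares to be held beside the count of every list below. The median log2 fold change of the 8, Dpys included, was -0.13, beside -0.01 over all genes tested. With GC correction 2 of the 7 were higher (Cad, Dctd) and 1 lower (Upp1), beside 10.1% of genes higher and 9.95% lower. Leaving out a tamoxifen library lowered the number of genes called over all genes, so a call lost that way need not mean a changed value. For 6 of the 7 the tamoxifen and ethanol libraries did not overlap, beside 74.0% of all tested genes; only for Dhodh did the groups overlap.

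**Figure D1:**
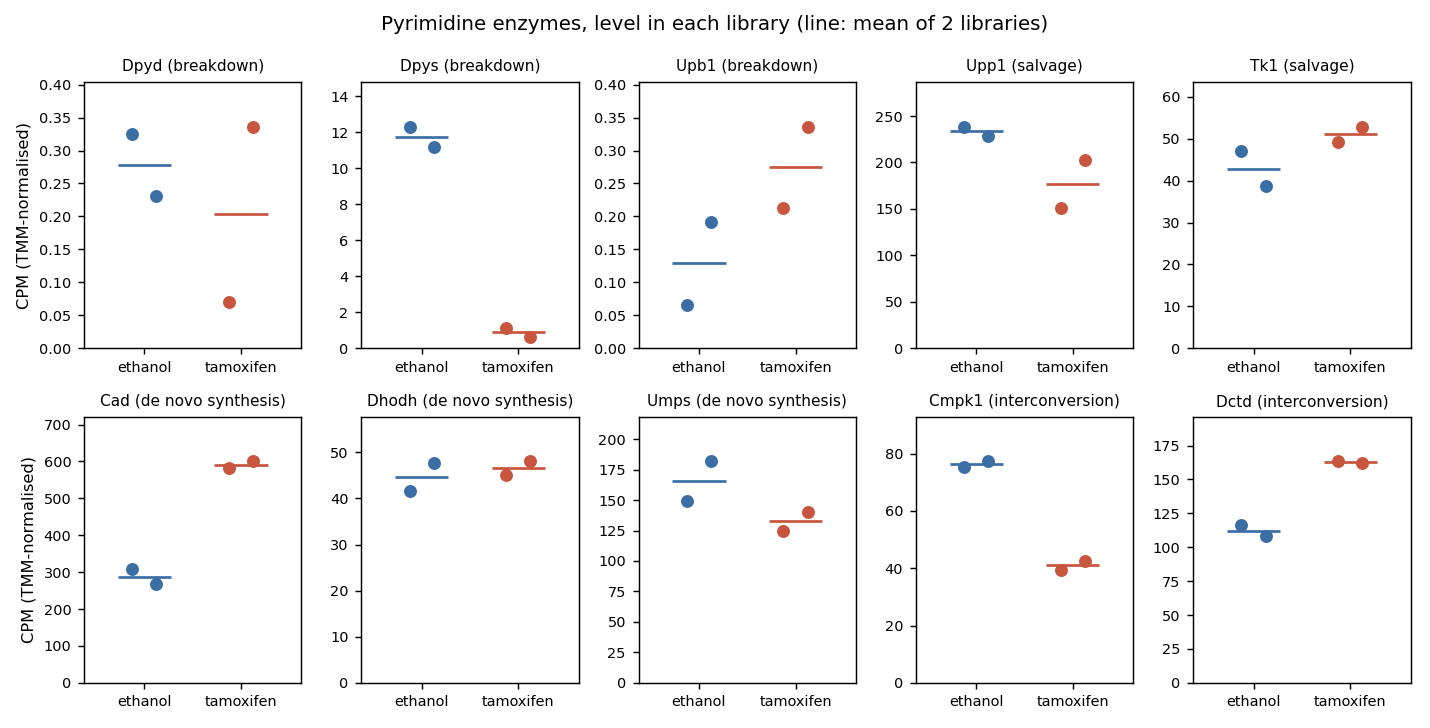
TMM-normalised CPM (vertical axes, each starting at 0) of the 10 enzymes in each ethanol (blue) and tamoxifen (red) library, with a line at the mean of the 2 libraries of a group. Dpys drops from near 12 to about 1 CPM and Cad goes from 287 to 591 CPM on average, while Dpyd and Upb1 stay below 0.4 CPM in every library.

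Dpyd, Dpys and Upb1, the enzymes grouped here as breakdown, were the least abundant of the set per kilobase of transcript. Upp1, which splits uridine, was grouped with salvage. Dpys, which opens the dihydropyrimidine ring in the middle step, had 189 and 291 counts with ethanol and 16 and 11 with tamoxifen. That is 12.3 and 11.2 CPM with ethanol and 1.13 and 0.616 CPM with tamoxifen, so that both tamoxifen libraries lay far below both ethanol libraries. The fitted level was 13.7-fold lower (log2 fold change -3.77 ± 0.28, SE), or 7.31% of the ethanol level. Of the 14479 genes tested, 3 had a lower log2 fold change, all under the level limit. Just after Dpys above that limit came Lrrc34 (-3.24) and Mtap7d3 (-3.19). In bulk RNA, fewer cells with a transcript and less transcript per cell cannot be told apart.

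The fall of Dpys hardly moved with base composition: its transcript has 49.4% GC, the median log2 fold change in the same GC bin was -0.07, and with GC correction Dpys was at -3.69. The log2 fold change of Dpys was -3.36 with tamoxifen replicate 1 alone and -4.24 with replicate 2 alone. These values rest on 16 and 11 tamoxifen counts, and the gap between them was not tested. Of the protein-coding genes next to it in RefSeq order, Lrp12, a lipoprotein receptor relative, had 10.8 ± 0.318 CPM with ethanol and 8.46 ± 0.159 CPM with tamoxifen (SD, n = 2), a log2 fold change of -0.35 ± 0.18 that was not called (edgeR adjusted p = 0.125). Dcstamp, on the other side, had 2 and 6 counts with ethanol and 0 and 2 with tamoxifen and was not tested. Of 6 hepatocyte markers, Alb, Fabp1 and Cps1 had at most 0.0708 CPM in any library and Serpina1a had no read, while Apoa1 (17.5 to 25.5 CPM) and Ttr (9.64 to 25.1 CPM) were detected and not called. Of 5 kidney tubule markers, the transporter gene Slc34a1 had no read and Slc5a2 at most 0.280 CPM. The endocytic receptor genes Cubn and Lrp2 were abundant in all 4 libraries and not called. The water channel gene Aqp1, at 0.0652 to 1.18 CPM, was called higher (1.86), but not with GC correction (1.55, edgeR adjusted p = 0.0839).

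The enzymes on either side of Dpys in the route were at the limit of detection. Dpyd, which catalyses the first step, had 5 and 6 counts with ethanol and 1 and 6 with tamoxifen, and the groups overlapped. Its ratio of tamoxifen to ethanol was 0.824 (exact 95% interval 0.271 to 2.33, which covers counting error only). Upb1, the last step, had 1 and 5 counts with ethanol and 3 and 6 with tamoxifen, a ratio of 1.94 (0.617 to 6.63). Scaled for depth, its groups did not overlap, with 0.0652 and 0.192 CPM with ethanol and 0.212 and 0.336 CPM with tamoxifen. No difference was detectable at this depth for either gene. In ethanol the level per kilobase of transcript was 4.76 CPM for Dpys, 0.0619 for Dpyd and 0.0423 for Upb1.

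Among other enzymes of breakdown and of the beta-amino acids it yields, 1 of 3 tested was lower and none higher (median log2 fold change -0.30). Aldh6a1, a mitochondrial dehydrogenase of methylmalonate semialdehyde, fell from 54.5 and 50.4 CPM to 24.6 and 29.0 CPM (-0.97 ± 0.15, edgeR adjusted p = 5.97e-04). With GC correction it was at -0.47 and called, and that call was lost on leaving out ethanol replicate 1 (-0.38) or either tamoxifen library (-0.38 and -0.56). The phosphorylase gene Upp2 and the aminotransferase gene Agxt2 were near 0 in every library.

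Of the salvage enzymes, neither was called without correction. Upp1, uridine phosphorylase, which splits uridine into uracil and a sugar phosphate, was the most abundant of the 10 per kilobase of transcript in both groups. It had 239 and 229 CPM with ethanol and 151 and 203 CPM with tamoxifen. Both tamoxifen libraries were lower, but they differed from each other by more than the ethanol libraries did, and the log2 fold change of -0.40 ± 0.17 missed the threshold (edgeR adjusted p = 0.0677). With GC correction it was -0.55 ± 0.16 and called (edgeR adjusted p = 0.0272). Tamoxifen replicate 1 weighed on it: without that library the value was -0.21 uncorrected and -0.36 corrected, neither called, whereas without ethanol replicate 2 the uncorrected value was called (-0.43).

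Tk1, the cytosolic thymidine kinase of dividing cells, had 47.0 and 38.7 CPM with ethanol and 49.3 and 52.9 CPM with tamoxifen. Both tamoxifen libraries were higher, by less than the gap between the ethanol libraries for the nearest pair. The log2 fold change of 0.26 ± 0.15 was not called (edgeR adjusted p = 0.188), passed without ethanol replicate 1 (0.41), and turned to -0.08 with GC correction. Its exons overlap those of Afmid on the opposite strand by 83 bases in the GENCODE annotation, and reads there cannot be told apart without a stated strand setting. Of 7 other salvage enzymes, 1 was higher and 1 lower. Dck, the deoxycytidine kinase, fell from 59.4 and 63.7 CPM to 35.4 and 29.3 CPM (-0.93 ± 0.16; -0.42 and not called with GC correction). Cda, the cytidine deaminase, rose from 0.782 and 0.614 CPM to 1.49 and 2.13 CPM (1.41 ± 0.37), a call that ended with GC correction (0.96), with DESeq2 (1.39) and without tamoxifen replicate 2 (1.11).

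De novo synthesis changed unevenly along its route. Cad, which carries out the first 3 reactions, rose from 308 and 267 CPM with ethanol to 581 and 600 CPM with tamoxifen. Each tamoxifen library stood well above each ethanol library, and the gap between the groups was far wider than that within either. The rise was 2.06-fold (log2 1.04 ± 0.16, SE; edgeR adjusted p = 4.30e-04). Its transcript is rich in G and C (57.4%), where the median of all genes was 0.51. With GC correction the rise was 0.57 ± 0.14 and still called (edgeR adjusted p = 0.0128), but not without tamoxifen replicate 1 (0.58) or tamoxifen replicate 2 (0.56). Uncorrected, it was called under all 12 single changes of scaling, filter, tool, block or library, between 0.95 and 1.17. Myc, a transcription factor for which CAD is a textbook target, was at 49.9 and 31.5 CPM with ethanol and 140 and 138 CPM with tamoxifen; its part in the rise of Cad was not tested.

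Dhodh, the mitochondrial dehydrogenase of the fourth step, had 41.6 and 47.8 CPM with ethanol and 45.1 and 48.0 CPM with tamoxifen. The groups overlapped, and the log2 fold change was 0.06 ± 0.15 (edgeR adjusted p = 0.774). It was -0.31 and not called with GC correction, and called lower with the correction when ethanol replicate 1 was also left out (-0.46). Umps, which makes UMP in the last steps, had 149 and 182 CPM with ethanol and 125 and 140 CPM with tamoxifen. Both tamoxifen libraries were lower, yet the nearest pair differed by less than the ethanol libraries did, and the log2 fold change of -0.32 ± 0.16 was not called (edgeR adjusted p = 0.113; -0.17 with GC correction). Without ethanol replicate 1 it was called (-0.45). The exons of Umps overlap an antisense transcript, Gm15829, by 213 bases in the GENCODE annotation.

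Ratios of counts within a library, in which library size and scaling cancel, showed the same unevenness. Cad had 2.07 and 1.47 reads for each Umps read with ethanol and 4.66 and 4.27 with tamoxifen, a mean change of 2.56-fold. Against Dhodh the ratio was 7.40 and 5.58 with ethanol and 12.9 and 12.5 with tamoxifen, a change of 1.97-fold. The groups did not overlap in either ratio. These pairs were chosen after the values were seen, and the ratios still carry the GC trend of each library.

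The interconversion enzymes moved apart. Cmpk1, the kinase that turns UMP and CMP into diphosphates, fell from 75.2 and 77.3 CPM to 39.5 and 42.5 CPM, with libraries of a group close together. The fall was 1.86-fold (log2 -0.90 ± 0.14; edgeR adjusted p = 6.14e-04). Its transcript has the lowest GC content of the 8 (39.4%), in the GC bin whose median was -0.75, and with GC correction the value was -0.15 ± 0.14 and not called (edgeR adjusted p = 0.473). Dctd, the deaminase that turns dCMP into dUMP for thymidylate synthesis, rose from 116 and 108 CPM to 163 and 162 CPM. The rise was 1.45-fold (0.54 ± 0.14, edgeR adjusted p = 0.00985) and nearly the same with GC correction (0.52 ± 0.14, edgeR adjusted p = 0.0184); its transcript has 51.0% GC, where the median of all genes was 0.09. The call of Dctd was lost when either tamoxifen library was left out (replicate 1, 0.53 uncorrected and 0.51 corrected; replicate 2, 0.54 and 0.52), at an almost unmoved value.

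**Figure D2:**
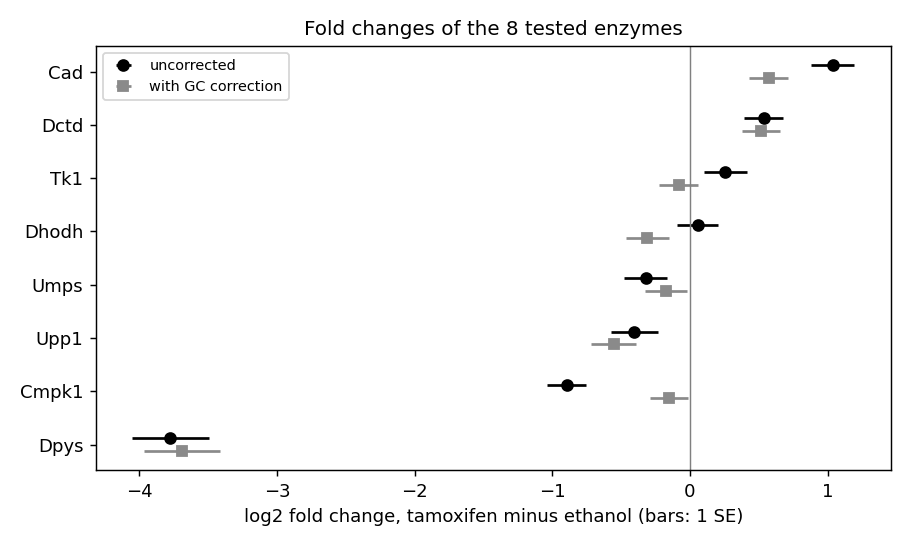
Log2 fold change, tamoxifen minus ethanol (horizontal axis), of the 8 tested enzymes without (black) and with (grey) GC correction, with bars of 1 SE. Dpys and Dctd keep their values (-3.77 and -3.69, 0.54 and 0.52), Cad shrinks from 1.04 to 0.57, and Cmpk1 moves from -0.90 to -0.15.

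**Figure D3:**
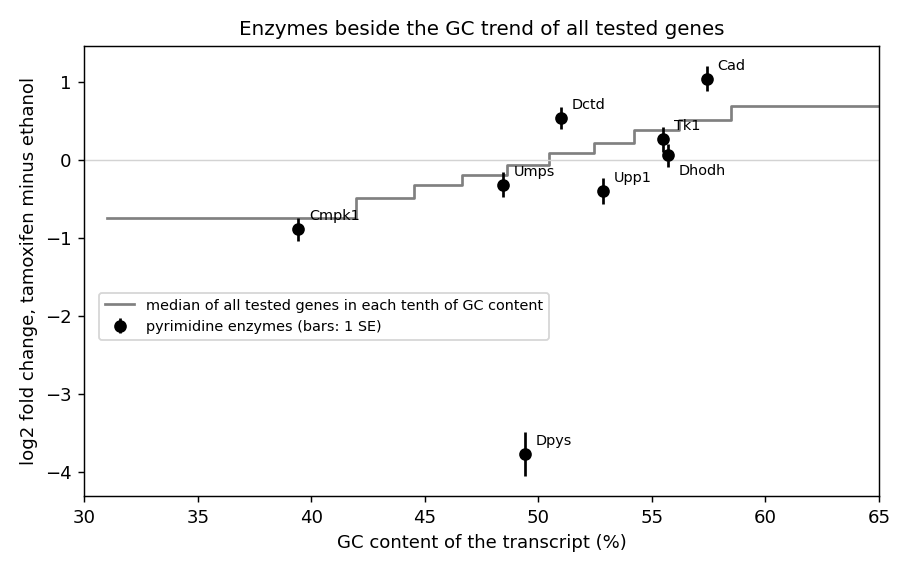
Log2 fold change of the 8 enzymes (points, bars of 1 SE) against the GC content of their transcripts in percent, beside the median of all tested genes in each of 10 bins of GC content (grey steps). Umps at 48.4% GC and Tk1 at 55.5% lie within 1 SE of the steps, Cmpk1 at 39.4% (-0.90 beside a step of -0.75) just outside it, Cad, Dctd, Upp1 and Dhodh farther off, and Dpys far below.

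Per kilobase of the longest coding transcript, the ethanol order was Upp1 (183 CPM per kilobase), Dctd (53.5), Umps (47.5), Cad (40.3), Tk1 (29.7), Cmpk1 (24.1), Dhodh (21.9), Dpys (4.76), Dpyd and Upb1. Dctd and Umps, Umps and Cad, and Dpyd and Upb1 overlapped between libraries. In tamoxifen Cad was second (82.7), after Upp1 (138) and before Dctd (77.6), followed by Umps (38.1), Tk1 (35.5), Dhodh (22.8), Cmpk1 (12.9) and Dpys (0.355). There Umps and Tk1, and again Dpyd and Upb1, overlapped. With the union of all annotated exons as the length, places between the second and the seventh changed, while Upp1 stayed first, Dpys eighth and Dpyd and Upb1 last in both groups, and Cad moved up 1 place, to second, with tamoxifen.

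**Figure D4:**
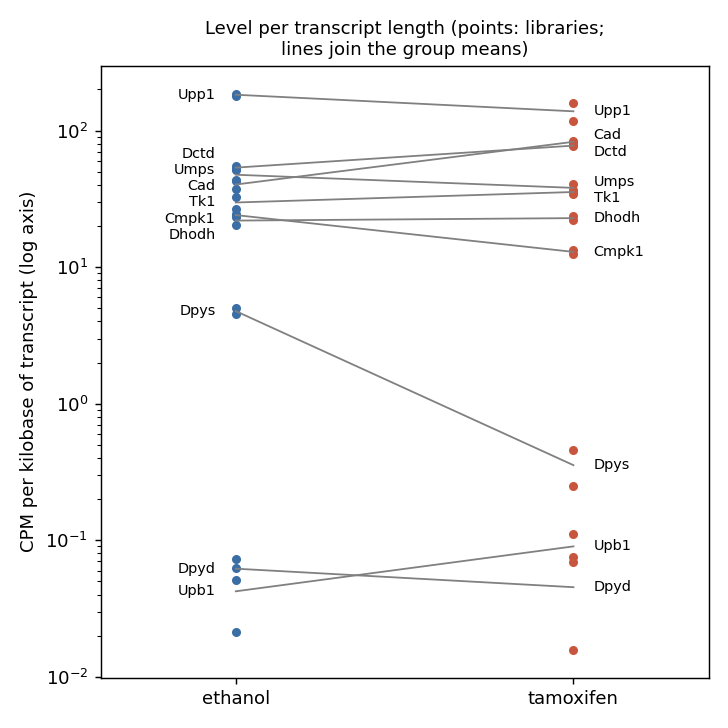
CPM per kilobase of transcript (log axis) of the 10 enzymes with ethanol (blue) and tamoxifen (red), points for libraries and lines joining group means. Cad passes Umps and Dctd, from 40.3 to 82.7, and Dpys drops from 4.76 to 0.355 CPM per kilobase.

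Of 9 genes of deoxynucleotide and thymidylate metabolism, 6 were lower and none higher (median -0.39), beside 22.9% of all genes lower and 21.5% higher. The list holds makers of deoxynucleotides as well as enzymes that break them down. Rrm1, the large subunit of ribonucleotide reductase, fell from 394 and 410 CPM to 257 and 290 CPM (-0.56 ± 0.15, edgeR adjusted p = 0.0110). Rrm2b, a small subunit (-0.50 ± 0.16), and Dut, which splits dUTP (-0.38 ± 0.14), were also lower, each less than 1.5-fold. With GC correction none of the 9 was called and the median was -0.15. Rrm2b then had 0.25. The 6 also became 2 with upper-quartile factors, 1 with total counts, 3 with DESeq2, 3 with a CPM of at least 1 required in all libraries and, on leaving out a tamoxifen library, 0 (replicate 1) or 1 (replicate 2). Of 12 S-phase genes, listed because Tk1 and the reductase rise in S phase, 4 were higher and 1 lower. With GC correction 1 was higher and 1 lower, beside 10.1% and 9.95% of all genes. The lower gene was then a different one, the cyclin Ccne1 (-0.51, and -0.37 and not called without correction). Without tamoxifen replicate 2 the higher genes numbered 1, and 0 with GC correction. Among them the helicase subunit Mcm5 rose (0.69 ± 0.16; 0.60 with GC correction) and the cyclin Ccne2 fell (-1.39 ± 0.22; -0.44, not called, with GC correction). The call of Mcm5 ended without tamoxifen replicate 2, at 0.52 uncorrected and 0.43 corrected.

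Of 10 other nucleotide kinases and CTP synthases, 1 was higher and 2 lower, in number the same with GC correction. Cmpk2, a mitochondrial nucleotide kinase gene, fell 4.59-fold, from 2.67 and 3.61 CPM to 0.778 and 0.616 CPM. Its log2 fold change was -2.20 ± 0.34 (edgeR adjusted p = 4.99e-04), and -2.19 with GC correction. The nucleoside diphosphate kinase gene Nme4 rose (0.97 ± 0.16; 0.51 with GC correction) and its relative Nme7 fell (-0.89 ± 0.15; -0.56). Both corrected calls ended without tamoxifen replicate 1 (0.41 and -0.59) or tamoxifen replicate 2 (0.60 and -0.52), and that of Nme4 also without ethanol replicate 2 (0.41).

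Carriers of nucleosides were split, with 1 of 7 higher and 2 lower, in number the same with GC correction. Over all genes 21.5% were higher and 22.9% lower, and 10.1% and 9.95% with GC correction. Leaving out ethanol replicate 1 gave 3 higher and leaving out ethanol replicate 2 gave 2. Slc28a1, the sodium-driven carrier that takes up pyrimidine nucleosides, fell from 14.3 and 14.3 CPM to 4.88 and 6.05 CPM (-1.38 ± 0.19, edgeR adjusted p = 2.59e-04; -1.77 with GC correction). Slc29a2, an equilibrative nucleoside carrier, rose from 18.8 and 14.6 CPM to 40.8 and 43.5 CPM (1.34 ± 0.17, edgeR adjusted p = 1.67e-04; 0.84 with GC correction). Both were called, corrected or not, without any 1 library. Slc25a36, a mitochondrial pyrimidine nucleotide carrier, fell by 0.75 on the log2 scale and was at -0.10 and not called with GC correction. Of 6 tested 5' nucleotidases, which strip phosphate from nucleotides, 3 were higher and 2 lower, and with GC correction 1 and 1. The 3 became 1 with DESeq2 and on leaving out either tamoxifen library.

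The dihydropyrimidinase-like proteins resemble Dpys in fold but serve in the cytoskeleton of neurons. Of 5 tested, 1 was higher and 2 lower (1 and 3 with GC correction). Dpysl2 went from 17.2 and 21.1 CPM to 10.7 and 9.13 CPM (-0.96 ± 0.18, edgeR adjusted p = 0.00149), Dpysl5 from 21.8 and 19.7 CPM to 15.8 and 12.6 CPM (-0.55 ± 0.17, edgeR adjusted p = 0.0220) and Dpysl3 from 32.6 and 34.9 CPM to 47.2 and 52.5 CPM (0.56 ± 0.15, edgeR adjusted p = 0.00924). All 3 were called with GC correction (-0.79, -0.97 and 0.60). The calls of Dpysl3 (0.48 uncorrected, 0.53 corrected) and Dpysl5 (-0.39 and -0.81) ended without tamoxifen replicate 2, as did the corrected call of Dpysl2 (-0.67); that of Dpysl5 also ended with total counts (-0.42).

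Purine synthesis is given for comparison with the pyrimidine route. Of its 13 genes, 3 were higher and 6 lower, with a median of -0.32, beside 21.5% of all genes higher and 22.9% lower. With GC correction 1 was higher and 3 lower, with a median of -0.01, beside 10.1% and 9.95% of all genes. Without tamoxifen replicate 2 fewer were called higher, and with GC correction the calls were lost, while fewer genes were called over all genes as well. The PRPP synthetase genes Prps1 and Prps2, whose product feeds both routes, fell by 0.95 and 1.31 on the log2 scale (-0.58 and -0.74 with GC correction). Paics, a bifunctional enzyme of the purine ring, fell from 975 and 984 CPM to 509 and 511 CPM (-0.94 ± 0.15; -0.77 with GC correction). The corrected calls ended without tamoxifen replicate 2 for Prps1 (-0.60), Prps2 (-0.67) and Paics (-0.77) and without tamoxifen replicate 1 for Prps1 (-0.56). Of 7 tested purine salvage and breakdown genes, 2 were lower and none higher (1 and none with GC correction), Pnp and its neighbour copy Pnp2, whose similar sequences make the division of reads between them uncertain. Neither was called without tamoxifen replicate 1 (-0.43 and -0.48). With GC correction Pnp was at -0.25 and not called, and Pnp2 at -0.54 and called, a call lost without either tamoxifen library (-0.39 and -0.70).

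**Figure D5:**
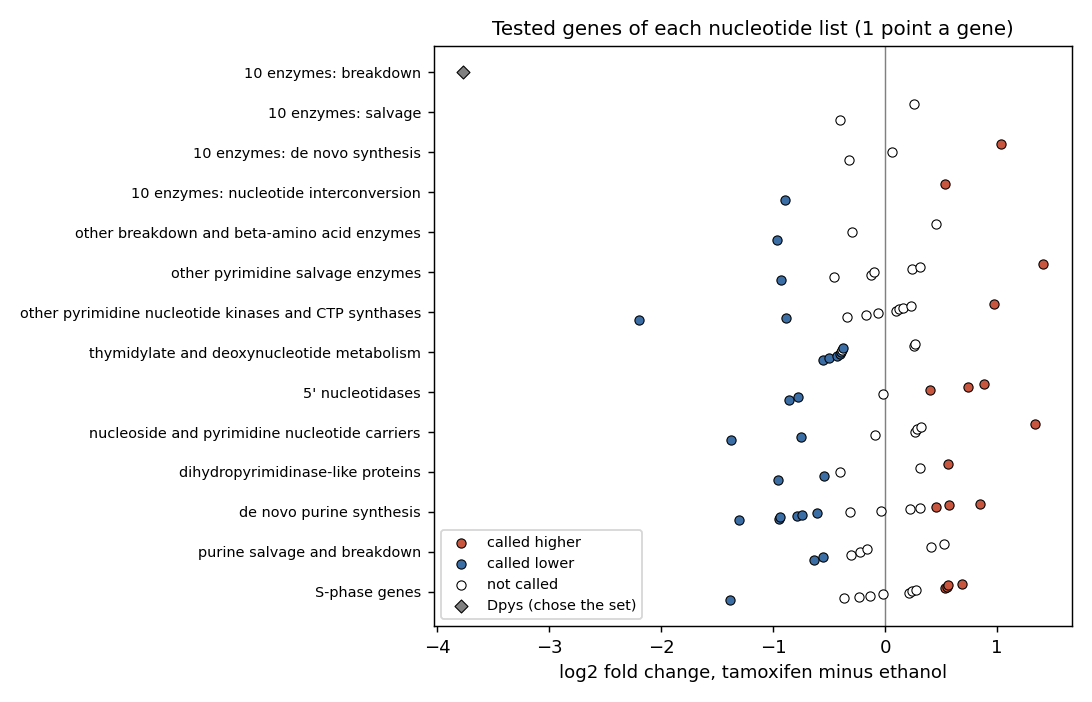
Log2 fold change, tamoxifen minus ethanol (horizontal axis), of each tested gene of the nucleotide lists, filled where called higher (red) or lower (blue) without GC correction; Dpys, on which the set was chosen, is a grey diamond with no call. Dpys at -3.77 lies apart from every other gene shown, the next lowest being Cmpk2 at -2.20, and the highest is Cda at 1.41.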

How the data were processed

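The deposited values are counts of reads per gene symbol, 1 file for each of 4 poly(A) libraries. CASAVA 1.8.2, Bowtie 1.1.1, HTSeq, DESeq2 and build mm9 are named in the submitters' processing notes, without roles; which annotation and strand setting the authors used is not stated there. The 5 summary lines were left out. Reads in no gene were 51.7 and 40.8% of the file's total with ethanol and 37.6 and 35.0% with tamoxifen. The groups did not overlap, so this difference between libraries cannot be told apart from treatment. Replicate counts differed beyond sampling noise, with a chi-square of 37.0 (ethanol) and 10.5 (tamoxifen) for each degree of freedom.

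Tamoxifen was compared with ethanol by edgeR 4.0.16 (quasi-likelihood test, robust, TMM factors, filterByExpr, Benjamini-Hochberg adjustment over 14479 genes, R 4.3.3). The fit was also run on simulated counts with 200 changed genes, a common dispersion and no GC trend. That setting does not cover data with such a trend. A standard error is the size of the log2 fold change divided by the root of the F statistic; errors after ± are SE unless marked SD. GC correction entered each library's loess trend (span 0.5, degree 1) on GC content of the longest GENCODE transcript as an offset. That annotation (GRCm38) served for GC, length and overlaps only; 369 of 24428 symbols had no match.

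The enzymes and lists were chosen with earlier results of these data known. Named genes are all 10 enzymes, Smarca4, the neighbours of Dpys, the genes ranked after Dpys and up to 4 genes with the smallest adjusted p from each list, described where called (1 of these is not reported here); Myc was added after its values were seen. Alternatives were RLE, upper-quartile and total-count scaling, 2 other filters, DESeq2 1.42.0, limma 3.58.1 (voom), a replicate block, an adjusted p of 0.01 and leaving out each library; a group left with 1 library takes its spread from the other. Counting intervals are exact binomial.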

Additional observations from a re-analysis of the deposited data

How the results depend on the processing

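The value of Dpys, which chose the set, ran from -4.24 to -3.27 over 17 alternatives. With a CPM of at least 1 required in all libraries it was not tested. Total counts moved the median over all genes to 0.12 from -0.01 (log2). Over all genes 3119 were higher and 3322 lower, with GC correction 1457 and 1441, and at an adjusted p of 0.01 1765 and 2041. Leaving out 1 library gave 1800 to 3598 higher and 2055 to 3728 lower. With GC correction the numbers were 1707 and 1832 without ethanol replicate 1, 1734 and 1824 without ethanol replicate 2, 640 and 749 without tamoxifen replicate 1, and 402 and 439 without tamoxifen replicate 2. Of the 10 enzymes 2 were higher and, with Dpys counted as in all numbers of enzymes here, 2 lower (1 under that CPM filter, which drops Dpys). Leaving out 1 library gave 1 to 3 higher and 2 to 3 lower. With GC correction 0 were higher without either tamoxifen library, and 1 was lower without tamoxifen replicate 1. Replicate numbers only name libraries (2 pairs, correlation of deviations 0.225); with the number as a replicate block 4 enzymes were lower, Upp1 (-0.42) and Umps (-0.32) being added. Signs turned with GC correction for Tk1 (-0.082, -0.080 with the replicate block, and -0.0094, -0.16, -0.038 and -0.13 without ethanol replicate 1, ethanol replicate 2, tamoxifen replicate 1 and tamoxifen replicate 2), and, in the same order, for Dhodh (-0.31, -0.30, -0.46, -0.13, -0.27 and -0.35) and Rrm2b (0.25, 0.24, 0.28, 0.19, 0.17 and 0.32). Uncorrected, Dhodh ran from -0.032 to 0.17 without 1 library. With GC correction E2f1 turned without ethanol replicate 1 (-0.10) and tamoxifen replicate 1 (-0.040). The causes were not tested. Depth limits Dpyd and Upb1, with 6 or fewer counts in each library.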
